A study of Ovis aries with 18 samples.

Results

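The distal ends of chromosomes 4 to 26 were examined in sheep sperm. A cytosine was counted as distal when it lay within 5 Mb of the highest position listed for its chromosome, so position alone chose the members and no methylation value did. This gave 281516 of the 1850625 CpG cytosines listed for the series, or 20.6% of the 1368942 cytosines on these 23 chromosomes. The remaining 1087426 cytosines of the same chromosomes, called the rest, were the comparison.

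Sperm came from 6 Polypay rams, a prolific wool and meat breed. Ram410, Ram423 and Ram444 were controls on the basal feed, and Ram424, Ram498 and Ram511 received the same feed with rumen-protected methionine as a top-dress (1.5 g, 0.22%). Supplementation lasted 77 days and began when the rams averaged 88 days of age, and semen was collected about a month after it ended, from rams whose ejaculates had passed a limit of sperm number and motility. Each ram gave 1 library, so the ram was the replicate, and values of single rams follow the order in which the rams are named here. The pellets had been treated with a buffer that lyses somatic cells, but the identity of the cells was not checked against germ line marker genes here, because no table of gene starts in the genome build was used.

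Reduced representation bisulfite sequencing (RRBS) reads methylation at fragments that a restriction enzyme releases, which favours CpG-rich DNA. In sperm, most CpG sites outside CpG-rich promoters are methylated, while CpG islands are largely free of the mark, and the pattern is laid down in the male germ line by the de novo methyltransferase DNMT3A with its cofactor DNMT3L. Subtelomeric DNA of mammals is generally rich in genes, GC bases and CpG sites and recombines often in males. In sheep, chromosomes 4 to 26 are acrocentric, with the centromere close to an end, whereas chromosomes 1 to 3 have arms on both sides of it. Methionine feeds the cycle that makes S-adenosylmethionine, the methyl donor of DNA methylation.

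The distal zone covered 6.23% of the length spanned by the listed positions, yet it held 2448 listed cytosines per Mb against 628 per Mb in the rest. Local density was similar. The mean number of listed cytosines within 100 bp, both strands counted and the site itself included, was 20.4 in the distal zone and 20.7 in the rest. Each cytosine had at least 10 reads in each ram. The median coverage in the distal zone was 22, 24 and 22 reads in the control rams and 20, 36 and 28 reads in the methionine-treated rams. Summed over all listed cytosines, coverage ranged from 44504409 to 75603721 reads per ram.

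Sperm DNA was about 2-fold more methylated in the distal zone than along the rest of the same chromosomes. The methylation level of a cytosine was the share of its reads that were methylated, and levels were averaged over cytosines within each ram. Distal levels were 21.1, 22.1 and 23.1% in the control rams and 22.6, 20.4 and 20.5% in the methionine-treated rams. In the rest they were 10.6, 11.05 and 11.3% in the control rams and 11.4, 10.2 and 10.4% in the methionine-treated rams. The lowest distal level, in Ram498, lay above the highest level of the rest, in Ram424. The difference was 10.8 ± 0.648 percentage points (SD, n = 6 rams), with a range of 10.1 to 11.8, and the ratio was 2.0 (1.97 to 2.04). It was positive in 6 of 6 rams, and a two-sided exact sign-flip permutation test gave p = 0.03125, the smallest value that 6 rams allow. That p was also 0.03125 after Benjamini-Hochberg adjustment over the 7 comparisons made in this way.

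The shift was visible at both extremes of the distribution. On average 16.7% of distal cytosines were above 80% methylated, against 8.03% in the rest. Cytosines with no methylated read made up 52.8% of the distal zone and 68.6% of the rest, and those between 20 and 80% made up 9.10% and 4.50%.

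The size of the difference depended on the coverage required. Distal cytosines were covered less deeply, and 44.2% of them had their lowest ram at 10 to 14 reads, against 35.8% in the rest. In that band the distal level was 38.1% and the level of the rest 21.9%, a difference of 16.1 ± 0.632 points. It was 5.23 ± 0.751 points where the lowest ram had 15 to 19 reads, 2.35 ± 0.508 points at 20 to 29 reads and 0.851 ± 0.307 points at 30 reads or more. The difference was positive in 6 of 6 rams in each of these bands. With at least 20 reads in each ram, the distal level was 5.05% and that of the rest 2.79%, so the difference of 2.26 points (exact sign-flip permutation p = 0.03125) was smaller than that over all cytosines. Levels in percentage points therefore describe the listed cytosines at this coverage minimum and not the whole of each region.

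Averaged over cytosines, methylation declined with distance from the end. The mean level was 22.5 ± 1.17% in the last 1 Mb, 22.5 ± 1.16% from 1 to 2 Mb, 22.8 ± 1.25% from 2 to 3 Mb, 20.1 ± 1.04% from 3 to 4 Mb and 17.6 ± 1.02% from 4 to 5 Mb (SD, n = 6 rams). Just outside the limit of the zone, from 5 to 6 Mb, it was 17.5 ± 0.856%, so the limit did not mark a step. Further in, it was 14.7% from 5 to 10 Mb, 11.3% from 10 to 20 Mb and 8.74% from 20 to 40 Mb. Beyond 40 Mb the level was 10.9%. When reads were pooled, the level from 5 to 10 Mb was 20.2%, above the 19.3% of the last 1 Mb. By that measure the decline was not steady. Over the first 6 Mb the mean local density moved only between 19.6 and 21.1 cytosines within 100 bp.

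**Figure D1:**
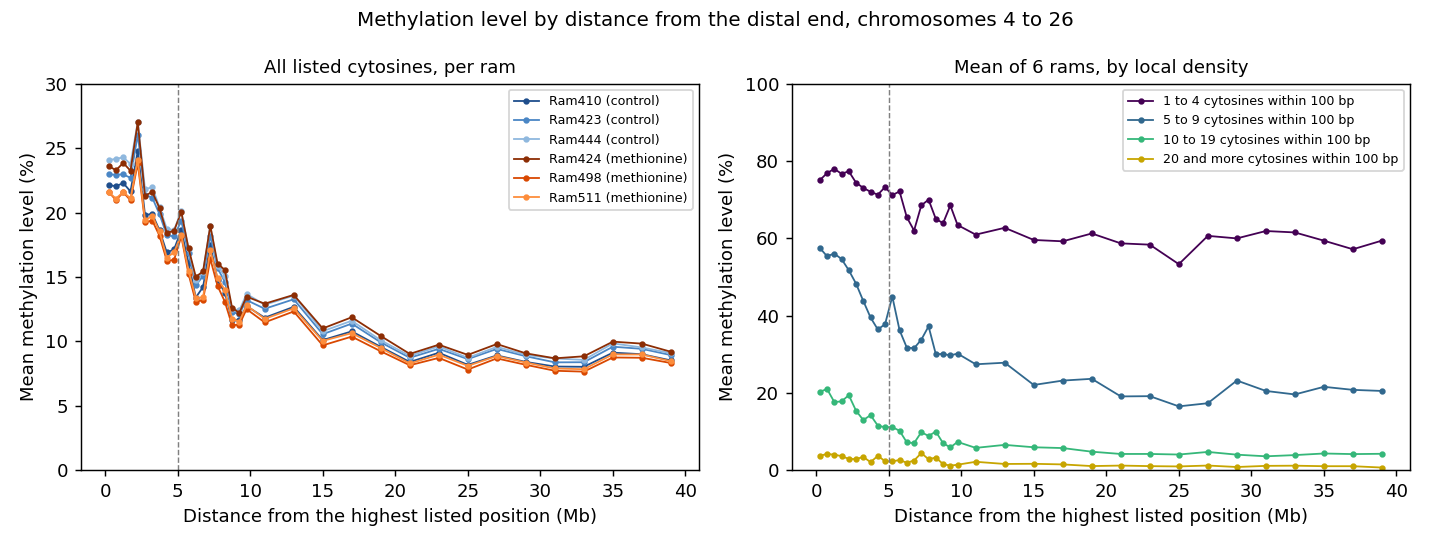
Mean methylation level (%) against distance from the highest listed position (Mb), in steps that widen with distance up to 40 Mb, on chromosomes 4 to 26. Left, each line is a ram; right, each line is a class of local cytosine density, averaged over 6 rams, and the dashed line marks 5 Mb. All 6 rams lie above 20% in the outer 2.5 Mb and fall together further in, and each density class is lower beyond 10 Mb than in the outer 2 Mb.

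The distal excess was present at every local density of listed cytosines and was highest in relative terms at moderately dense sites. Cytosines were divided by the number of listed cytosines within 100 bp, and unlisted CpG sites did not enter this number. At the sparsest cytosines by this count, with 1 to 4, the distal level was 75.3% and that of the rest 61.5%. The difference was 13.8 ± 0.311 points (SD, n = 6 rams). With 5 to 9 the levels were 50.98% and 25.4%, a difference of 25.5 ± 0.747 points, the largest of the 4 classes. With 10 to 19 they were 17.4% and 5.72%, a difference of 11.6 ± 1.12 points and a ratio of 3.04. At the densest cytosines, with 20 or more, they were 3.56% and 1.39%, a difference of 2.16 ± 0.417 points.

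Each of these differences was positive in 6 of 6 rams (two-sided exact sign-flip permutation p = 0.03125 for each class, adjusted p = 0.03125). The classes were present in similar shares in both zones, with 28.1% of distal cytosines and 29.7% of the rest in the class of 10 to 19. With at least 20 reads in each ram, the level in that class was 7.60 ± 1.49% in the distal zone and 3.22 ± 0.514% in the rest, higher in the distal zone in 6 of 6 rams. The differences in the 4 classes, in rising order of density, were then 8.50, 6.26, 4.39 and 1.40 points, so the class of 5 to 9 no longer had the largest.

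**Figure D2:**
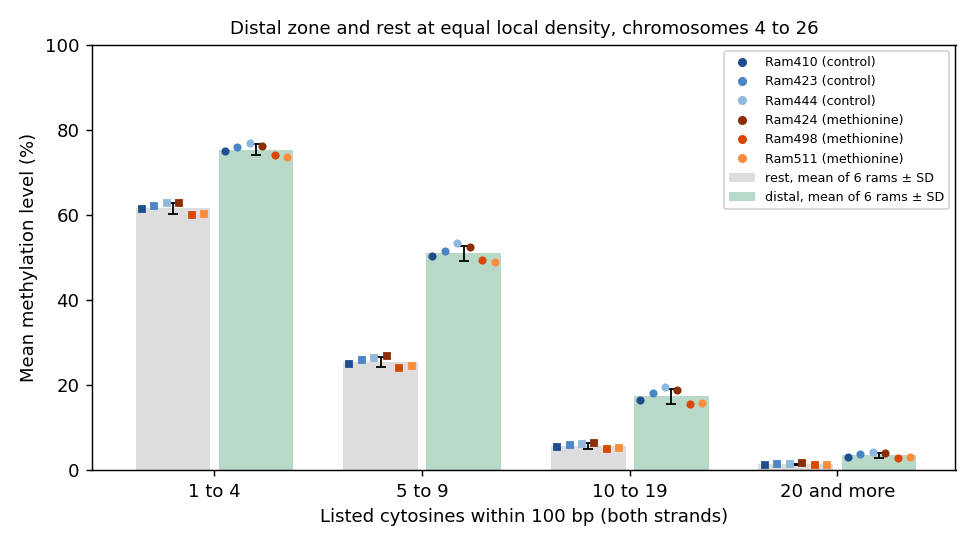
Mean methylation level (%) in classes of local cytosine density for the distal zone (green bars, circles) and the rest (grey bars, squares) of chromosomes 4 to 26. Bars are means of 6 rams, error bars are SD and points are rams; the distal points lie above the points of the rest in every class, with 50.98% against 25.4% at 5 to 9 cytosines.

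Methylation of whole dense stretches was also more frequent near the ends. Among non-overlapping 200 bp windows with 10 or more listed cytosines, 536 of 9778 distal windows (5.48%) and 514 of 40367 windows of the rest (1.27%) were above 80% methylated on the mean of the rams. The distal zone thus held 19.5% of these windows but 51.05% of the 1050 that were highly methylated. Per ram, the distal share was 5.85, 6.20 and 6.59% in the control rams and 6.09, 5.23 and 5.26% in the methionine-treated rams. In the rest it was 1.34, 1.47 and 1.55% in the control rams and 1.45, 1.17 and 1.21% in the methionine-treated rams. The difference was 4.50 ± 0.389 points, positive in 6 of 6 rams (two-sided exact sign-flip permutation p = 0.03125). Such windows occurred in the distal zone of 23 of 23 chromosomes. In windows with 20 or more cytosines they were rare in both zones, at 13 windows (0.307%) and 14 windows (0.08%).

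The most methylated of the dense distal windows lay at chr24:42764401-42764600, 0.304 Mb from the end. Its 15 cytosines averaged 98.3, 98.8 and 99.5% in the control rams and 100% in each methionine-treated ram. The next was chr21:51465801-51466000, whose 10 cytosines ranged from 98.5 to 100% over the rams. Windows without any methylated read stood in the same zone. The least methylated by the same ranking were chr13:84590801-84591000 and chr6:128212801-128213000, each with 11 cytosines at 0% in all 6 rams. The coordinates are those of Oar_rambouillet_v1.0, the build to which the reads had been aligned.

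The distal excess was found on nearly every chromosome. Of the 23 chromosomes, 22 had a higher level in the distal zone in all 6 rams. The difference had a median of 9.44 points and ranged from -0.169 to 17.1 points. Distal levels lay between 12.6 and 28.99% and levels of the rest between 7.89 and 14.8%. As a description over 23 chromosomes, which share the 6 libraries, the distal level was hardly related to that of the rest (Pearson r = -0.104), and the difference was weakly related to chromosome length (r = 0.331).

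Chromosome 16 had the largest difference, with 28.99 ± 1.83% in the distal zone against 11.8 ± 0.639% in the rest. It was followed by chromosome 8 at 25.4 ± 1.56% against 9.45 ± 0.452%, and by chromosome 6 at 24.2 ± 1.06% against 8.56 ± 0.423%. At the lower end, chromosome 26 had 20.6 ± 2.11% against 14.8 ± 0.866%, and chromosome 25 had 15.5 ± 0.789% against 10.7 ± 0.416%.

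Chromosome 14 was the exception. Its distal level was 12.1, 12.96 and 14.1% in the control rams and 13.9, 11.2 and 11.4% in the methionine-treated rams, and its rest was at 12.4, 12.9 and 13.5% and at 13.6, 11.9 and 12.3%. The distal level was the higher of the pair in only 3 of 6 rams, and the difference of -0.169 ± 0.563 points was smaller than its spread. Within its zone the level did not fall steadily inwards, with 10.1% in the last 1 Mb, 19.1% from 1 to 2 Mb, 14.1% from 2 to 3 Mb, 16.4% from 3 to 4 Mb and 10.2% from 4 to 5 Mb. In the density class of 10 to 19, even chromosome 14 was higher in the distal zone, at 11.6% against 7.41%. In that class all 23 chromosomes were, by 1.31 points on chromosome 25 to 19.01 points on chromosome 6.

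**Figure D3:**
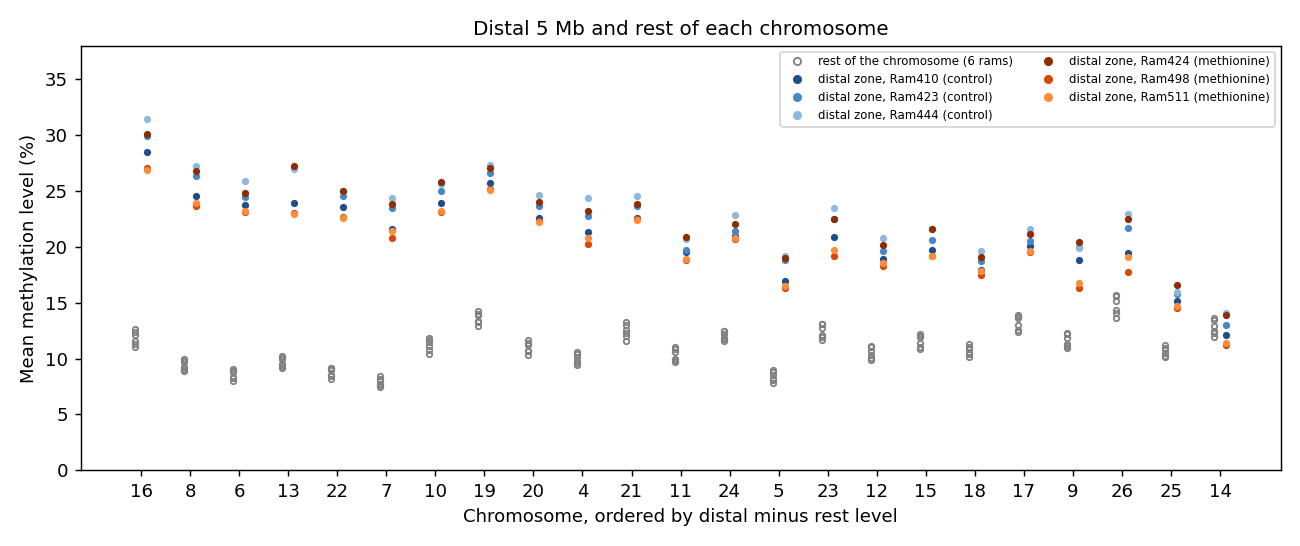
Mean methylation level (%) per chromosome, ordered by the distal minus rest difference, with filled points for the distal 5 Mb in each ram and open grey points for the rest of the chromosome in the same rams. The points are separate on 22 chromosomes and overlap on chromosome 14, the last in the order.

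The first 5 Mb of the same chromosomes, the opposite ends, were intermediate. Their 93731 cytosines averaged 14.8, 15.6 and 16.0% in the control rams and 16.02, 14.04 and 14.4% in the methionine-treated rams. The distal zone exceeded them by 6.51 ± 0.341 points, in 6 of 6 rams (two-sided exact sign-flip permutation p = 0.03125). With at least 20 reads in each ram the excess was 0.618 points (p = 0.03125, same exact test), and when all reads of a zone were pooled it was 0.229 points (p = 0.71875, same exact test), so its size rested on how levels were averaged. Both ends of chromosomes 1 to 3 were as methylated as the distal zones. Their last 5 Mb averaged 24.2 ± 1.30% over 32129 cytosines and their first 5 Mb 24.9 ± 1.12% over 40653, against 9.59 ± 0.416% between them.

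The diets did not differ detectably in the level of the distal zone. It was 22.1 ± 1.0% in control rams and 21.2 ± 1.26% in methionine-treated rams (SD, n = 3 each). The difference of -0.928 points gave p = 0.3 in a two-sided exact permutation test, which cannot go below 0.1 with 3 rams a group. The distal minus rest difference changed by -0.626 points with methionine (p = 0.3, same exact test). Although the distal mean was lower with methionine on 23 of 23 chromosomes, with differences from -1.95 to -0.31 points, the chromosomes share the same 6 libraries, and Ram424 stood among the control rams.

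The median coverage of the distal zone relative to the rest was lower in the methionine-treated rams. The ratio of median coverage in the distal zone to that in the rest was 1, 0.960 and 0.957 in the control rams and 0.909, 0.900 and 0.903 in the methionine-treated rams, without overlap. A two-sided exact permutation test gave p = 0.1, the smallest value it allows, and the ratios are of medians in whole reads. When all distal reads were pooled, the methylated share was 21.5, 21.9 and 23.7% in the control rams and 22.7, 8.97 and 13.5% in the methionine-treated rams. The low values belonged to Ram498 and Ram511, the rams with the highest coverage, and the diet difference then was -7.29 points (exact permutation p = 0.3). The part of coverage in the diet values was not tested.

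Single distal cytosines that differed between the diets, called differentially methylated cytosines (DMCs), numbered 120. They were hypomethylated in methionine-treated rams at 108 sites and hypermethylated at 12. These words describe the share of methylated reads, and sequence differences between the rams at these sites were not tested. Each had a q under 0.01 from a logistic regression with overdispersion, adjusted by Benjamini-Hochberg over the whole table, and a difference above 20 points in pooled reads. They made up 0.0426% of distal cytosines. Of all cytosines in the series, 0.0184% were called, 0.0157% as lower and 0.0027% as higher with methionine. The share was 0.0144% in the rest and 0.0320% in the first 5 Mb. The model used here, without age, called 341 cytosines over the whole series. The model of the study included age, and it called fewer at the same limits of q and difference.

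Cytosines between 20 and 80% on the mean of the diets made up 9.66% of the distal zone and 4.63% of the rest. Among them, 97 of 27205 distal cytosines (0.357%) and 136 of 50300 in the rest (0.270%) were called. These shares lay closer together, in relative terms, than those over all cytosines. The subset was defined by the same diet levels, so a large diet difference could itself place a site in it. In this subset rams of the same diet differed more in the distal zone, with a median overdispersion of 2.27 against 2.01.

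The count of DMCs rested on the test. The F test in place of the chi-square test called 0 of 281516 distal cytosines. Its unadjusted p was under 0.05 at 2103 of them, and its smallest q was 0.971. limma on logit levels also called 0, with 19143 at an unadjusted p under 0.05 and a smallest q of 0.0795. The chi-square test had 12106 at an unadjusted p under 0.05, or 4.30% of distal cytosines. Its share was 2.66% in the rest and 2.94% in the whole series. Leaving out Ram424 gave 479 calls, leaving out Ram410 gave 265, Ram423 205 and Ram444 194. The lower sites then numbered 122 to 456 and the higher ones 22 to 41, the most of the latter without Ram498, so the count of 12 higher sites was below each of these. With at least 20 reads in each ram, 27 lower sites and 0 higher ones were called. Of the 120 sites, 48 were called whichever ram was left out.

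At the 120 sites the difference had a median size of 40.6 points and ranged from 24.4 to 97.6. The median level over the hypomethylated sites was 71.0, 75.0 and 88.5% in the control rams and 34.0, 24.7 and 33.4% in the methionine-treated rams. At 49 of these 108 sites the control rams were all above 80%. At the 12 hypermethylated sites the medians of the rams were 0, 0 and 0% for controls against 47.2, 40.8 and 47.4%, and at 9 of them no control ram had a methylated read. These levels describe sites that were chosen by the same contrast.

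**Figure D4:**
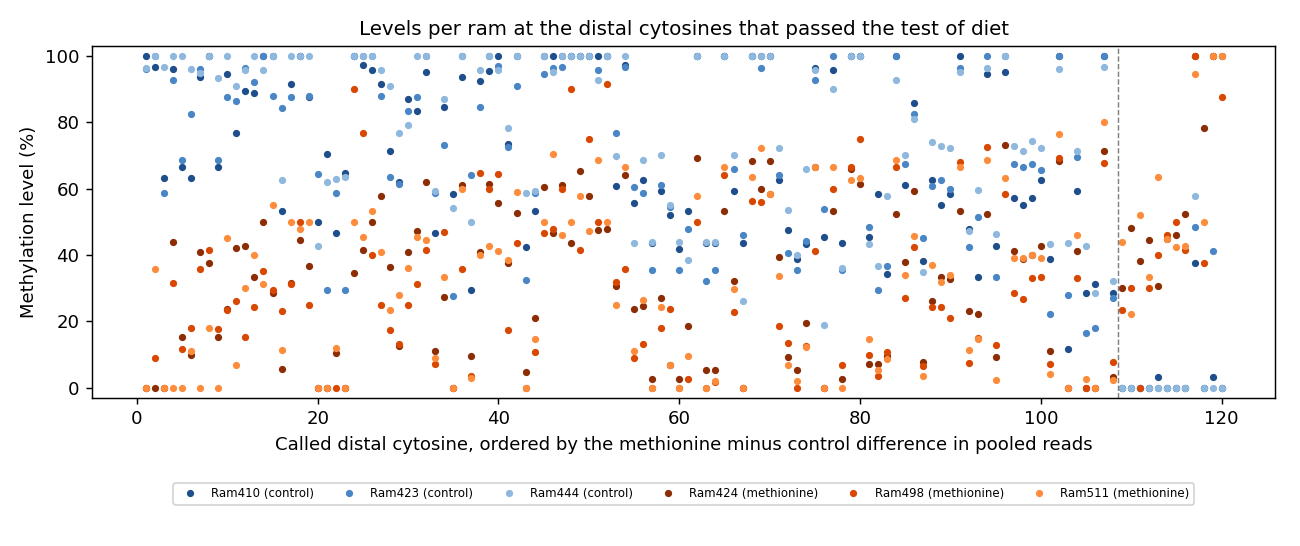
Methylation level (%) of each ram at the 120 called distal cytosines, ordered by the methionine minus control difference in pooled reads, with blue for control and orange for methionine-treated rams. The dashed line separates the 108 lower sites, where the levels of methionine-treated rams often lie above 0%, from the 12 higher sites.

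The sites fell on 19 chromosomes, in shares that followed a few clusters. Chromosome 9 had the highest share, with 14 of 4799 distal cytosines called (0.292%), all of them in called regions of the window test. It was followed by chromosome 23 with 17 of 8508 (0.1998%) and chromosome 16 with 16 of 10648 (0.1503%), 12 of the latter in a single region. On chromosome 21, 15 of its 16 sites lay in a single region. Over all chromosomes 76 of the 120 sites lay in 22 regions, so neighbouring sites are not separate events. Chromosomes 5, 8, 11 and 26 had none among 3609 to 9772 tested. The last 1 Mb held 35 of the 120 sites (29.2%), against 35.5% of all distal cytosines. The opposite strand of the same CpG site was listed for 65 sites, and it moved in the same direction at 63 and by a similar amount, within 10 points, at 42.

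Neighbouring cytosines behaved differently at the lower and the higher sites. Of the 108 hypomethylated sites, 104 had another listed cytosine within 50 bp on their strand, and their neighbours moved by a median of -31.6 points. They were lower by more than 10 points at 85 sites. Of the 12 hypermethylated sites, 8 had neighbours, and these moved by between -8.24 and 2.25 points, with a median of -1.64. At 2 of these sites at least 1 neighbour rose by more than 10 points. Called sites whose neighbours as a group stayed within 10 points were thus the rule among the higher sites and the smaller group among the lower ones.

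**Figure D5:**
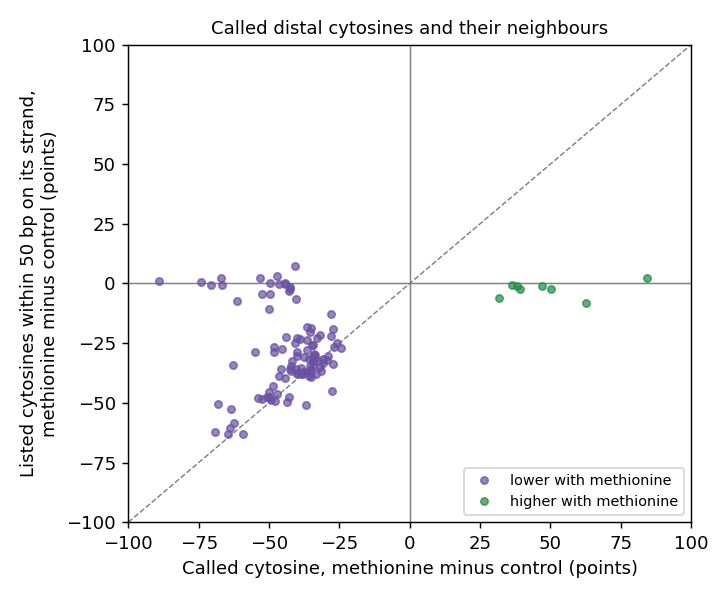
Methionine minus control difference (percentage points, pooled reads) at each of the 112 called distal cytosines with a listed neighbour, against the same difference over the cytosines within 50 bp on its strand. The dashed line marks equal change; most hypomethylated sites (purple) lie near it, with a second group near 0, and all 8 hypermethylated sites (green) lie between -8.24 and 2.25 on the vertical axis.

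The steepest fall was at chr23:63933955, 4.37 Mb from the end and intergenic in the annotation used. It was at 100, 96.0 and 96.3% in the control rams and at 0% in each methionine-treated ram (q = 1.17e-25). The methionine-treated rams had 20, 10 and 10 reads there. Overdispersion stood at its minimum of 1, so this q reflects read counting only. No other cytosine was listed within 50 bp of the site on its strand. The same chromosome end held chr23:64244963, at 96.6, 100 and 100% against 0, 9.09 and 35.7%, and chr23:66357127, at 63.2, 58.6 and 96.7% against 0% in each methionine-treated ram. Their neighbours moved by 1.11 and 0.493 points.

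At chr17:77643360 the levels were 96.2, 92.9 and 100% in the control rams and 44.0, 31.6 and 0% in the methionine-treated rams. The opposite strand fell by 67.1 points, while the neighbours on the same strand moved by -0.529 points. The fifth of the ranking, chr6:127108066, was at 66.7, 68.8 and 100% against 15.4, 11.8 and 0%. It differed from the others in that its 6 neighbours moved with it, by -62.1 points.

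Among the rises, chr18:69320073 was the steepest, at 0% in each control ram and at 100, 87.5 and 100% in the methionine-treated rams (q = 3.01e-24), with no listed neighbour. At chr23:65080439 the control rams were at 3.12, 41.4 and 0% and the methionine-treated rams at 100%. The opposite strand rose by 71.9 points there, and the neighbours moved by 2.25 points. At chr6:125139268 the control rams were at 0% and the methionine-treated rams at 78.3, 37.5 and 50%. At chr22:53853730 they were at 37.5, 48.4 and 57.7% against 100, 100 and 94.4%, but the opposite strand moved by only -1.64 points. The last, chr12:83071398, intergenic in the annotation used, which names GPR25 as the gene within 10 kb, an orphan G protein-coupled receptor gene, was at 0% against 52.4, 41.7 and 42.9%.

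Gene names were taken from the annotation of positions that accompanies the study, which was held for 53 of the 120 sites. It placed 36 between genes, 12 in introns, 3 in exons and 2 within 10 kb before a gene start. Among the 5 largest falls and 5 largest rises, only chr23:63933955 and chr12:83071398 had an entry. Whether the study itself had called the sites without an entry was not tested. The sites in or before genes were chosen after their values were seen. The exonic sites were in PHLPP1, LOC101108295 and CAMSAP2. At PHLPP1, a phosphatase gene that acts on AKT, chr23:67400136 was at 61.9, 61.5 and 76.9% in the control rams and 12.5, 13.2 and 28.0% in the methionine-treated rams, and its 9 neighbours moved by -28.8 points. At CAMSAP2, whose product binds microtubule minus ends, chr12:83045808 was at 0% in the control rams and at 30, 23.5 and 44.0% in the methionine-treated rams.

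Introns of CCBE1, which is needed for growth of lymphatic vessels, held 5 of the hypomethylated sites that the annotation listed on chromosome 23. At chr23:64611437 they read 100% in each control ram and 65.4, 41.7 and 57.9% in the methionine-treated rams. An intron of NF2, the gene for the tumour suppressor merlin, had 95.0, 100 and 100% against 61.9, 41.7 and 44.4% at chr17:78063487, whose 3 neighbours moved by 3.32 points. In ACOX3, a peroxisomal acyl-CoA oxidase gene, chr6:126698148 was at 43.8, 46.2 and 26.3% against 0% in each methionine-treated ram. Before TTYH1, a gene of the tweety family of chloride channels, chr14:67943548 was at 47.6, 40.5 and 53.6% against 9.38, 13.5 and 6.82%.

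The distal zone of chromosome 21 included CARS, which in mammals lies beside a cluster of imprinted genes. In an intron of CARS, the cysteinyl-tRNA synthetase gene, chr21:50425765 was at 62.5, 65.7 and 72.2% in the control rams and 42.6, 33.3 and 39.0% in the methionine-treated rams. Its neighbours moved by -30.3 points.

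Windows of 200 bp gave the same kind of test over several cytosines at a time. Of 91132 distal windows with at least 3 cytosines, 129 (0.142%) were called, 124 lower and 5 higher with methionine. Of all windows in the series, 0.0635% were called, 0.0598% as lower and 0.0037% as higher, and the share in the rest was 0.0426%. Overlapping windows merged into 46 regions, of which 43 were lower and 3 higher, on 19 chromosomes. These regions and the windows shown for them were chosen by the same contrast. As for single cytosines, the F test called 0 of the 91132 distal windows. Its unadjusted p was under 0.05 at 1986 of them, against 7580 for the chi-square test. The count of windows called by the chi-square test was 634 without Ram424, 333 without Ram410 and 225 without Ram423. The higher windows numbered 7 to 42 with a ram left out, with 42 without Ram498.

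The region with the smallest p was chr16:76705701-76706300, 1.64 Mb from the end. It held 32 listed cytosines, 12 of them DMCs. Its best window, with 25 cytosines, was at 96.2, 92.9 and 93.5% in the control rams and at 58.8, 58.3 and 65.1% in the methionine-treated rams, a difference of -33.4 points (q = 2.90e-38, chi-square test, Benjamini-Hochberg adjusted). Over the region 30 of the 32 cytosines were lower with methionine. The difference was thus spread over a dense stretch that was nearly fully methylated in the control rams.

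Of the higher regions, chr23:65080301-65080550 had the smallest p. Its 6 cytosines together were at 67.1, 82.4 and 69.6% in the control rams and at 100% in each methionine-treated ram, a difference of 26.5 points (q = 1.90e-10). The rise came from the 2 strands of a single CpG site, chr23:65080439 with 84.3 points and the opposite strand with 71.9 points. The other 4 cytosines moved by 1.47 to 2.25 points and were above 90% in every ram.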

How the data were processed

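Sperm of 6 rams was measured by RRBS. The authors trimmed reads, aligned them with Bismark to Oar_rambouillet_v1.0, removed duplicates by molecular identifier, and deposited methylated and unmethylated read counts and coverage per CpG cytosine, with at least 10 reads in each ram. These counts were used as deposited. Per ram, levels were averaged over cytosines. The members, lists and rules were chosen with earlier results of these data known. Zones were compared by a two-sided exact sign-flip permutation test over rams (64 patterns), diets by an exact permutation of 20 assignments. At every cytosine and 200 bp window (step 50 bp), diet was tested by logistic regression with overdispersion of at least 1 and a chi-square test. The study's covariate, age, is not in the labels and was not used. The permutation p-values measure only the spread between these rams, and counting error was not modelled for mean levels. The logistic regression models read counts. At 58 of the 120 called distal sites its overdispersion stood at the minimum of 1, so the p-value there reflects read counting only. limma 3.58.1 (pseudocount 0.5 reads), Python 3.11.15, numpy 2.4.6, pandas 2.3.3 and scipy 1.17.1 were used. Alternatives were another zone size, coverage minimum, averaging, test, threshold and leaving out each ram. The sites named were the 5 largest falls and rises, the 3 chromosomes at each end of the ranking, the best region in each direction and the 2 most and 2 least methylated dense windows. Germ line markers, promoters and sequences were not analysed here. The embryo RNA gene counts were not used here.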

Additional observations from a re-analysis of the deposited data

How the results depend on the processing

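The distal minus rest difference kept its sign in each alternative run and its p of 0.03125 in those with 6 rams. Among these runs it fell most with at least 20 reads in each ram, to 2.26 points. It was 10.2, 10.8 and 9.25 points for zones of 1, 2 and 10 Mb, 12.7 with strands merged, 7.85 in pooled reads, 14.7 over 200 bp windows, 9.66 with the rest weighted to the distal density classes, 10.1 at 15 to 30 reads in each ram (added after seeing the data), and 10.6 to 11.7 with each chromosome left out. With 5 rams the smallest possible p is 0.0625, so no result tested by sign flips could pass. Leaving out each ram gave 10.6 to 10.97 points for distal minus rest, 6.39 to 6.59 for distal minus proximal, 13.7 to 13.8, 25.3 to 25.7, 11.3 to 11.9 and 2.06 to 2.27 for the 4 density classes in rising order, and 4.39 to 4.59 for dense windows above 80% (added after seeing the data). The diet difference was -1.66 to -0.433 in the distal level and -0.968 to -0.296 in distal minus rest. Levels in the distance bins 0 to 1, 4 to 5 and 20 to 40 Mb were 22.2 to 22.8, 17.3 to 17.8 and 8.63 to 8.84%.

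In pooled reads distal minus proximal was 0.229 points (exact sign-flip permutation p = 0.71875). In the same distance bins the levels were 19.3, 15.2 and 7.67% in pooled reads and 5.23, 4.40 and 2.31% with at least 20 reads in each ram. In pooled reads the bin of 5 to 10 Mb stood at 20.2%, so the decline with distance was not steady by that measure. Distal DMCs numbered 0 by the F test, 0 by limma on logit levels, 1985 without overdispersion, 193 at q under 0.05, 27 with at least 20 reads and 144 to 479 with a ram left out. Distal windows numbered 0 by the F test, 1790 without overdispersion, 77 above 25 points and 135 to 634 with a ram left out. The cause of these changes was not tested, beyond the fewer sites (76963) that have 20 reads. No paired analysis was possible because each ram received 1 diet and the replicate numbers do not tie rams of different diets. The assembled chromosome end, genome CpG density and the promoter alternatives were not run, since no genome of the build was used.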

Other observations

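The X chromosome showed a contrast between its ends. Its first 5 Mb, with 6091 listed cytosines, were at 21.4, 22.1 and 23.3% in the control rams and 22.6, 20.1 and 20.5% in the methionine-treated rams, close to the distal zones of the autosomes. Its last 5 Mb held only 113 listed cytosines and averaged 5.65 ± 0.881% (SD, n = 6 rams). The 16198 cytosines between them averaged 5.27 ± 0.387%, so the low-position end stood apart in all 6 rams and the high-position end did not.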
